A study of Mus musculus with 6 samples.

Results

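Interferon-stimulated genes and genes of antigen presentation were compared between Ts1Cje and disomic adult mouse neurospheres. The group was set by a list of 41 gene symbols: the transcription factors of the interferon response, genes that interferons induce, and the MHC class I and immunoproteasome genes. Members were the probe sets whose platform annotation names 1 of these symbols and no other gene. This gave 81 of the 34945 probe sets with a single symbol and 39 of the 41 genes. Ifi44 had no such probe set, and Isg15 was represented only by a probe set shared with the pseudogene Gm9706, so neither was counted. All 39 genes could be placed on a chromosome, and 0 of them lie in the trisomic segment of Ts1Cje. Of these, 3 (Parp9, Parp14 and Dtx3l) lie on the disomic part of chromosome 16, and 8 lie on chromosome 17, which holds the MHC.

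Interferons are secreted proteins that alert cells to infection. Type I interferons bind a receptor made of Ifnar1 and Ifnar2, interferon gamma binds Ifngr1 and Ifngr2, and the Janus kinases attached to these receptors phosphorylate STAT proteins. Stat2 and Irf9 are parts of a complex that binds the interferon-stimulated response element in promoters. The genes switched on in this way encode RNA sensors, antiviral effectors, ubiquitin-like modifiers and the machinery that cuts proteins into peptides and shows them on MHC class I. Neural stem and progenitor cells can express many of these genes at a basal level. Ifnar1, Ifnar2, Ifngr2 and Il10rb are neighbours in the Ts1Cje trisomic segment, so the question addressed here is whether the target genes differ in a cell that carries 3 copies of these receptors.

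RNA came from neurosphere cultures, which are floating colonies grown from neural stem cells and progenitors. The cells were taken from the lateral ventricle walls of female mice aged 84 days and grown for 7 days. The 3 Ts1Cje cultures came from mice with the Ts1Cje chromosome on a C57BL/6 background, and the 3 disomic cultures from their C57BL/6 littermates. The study describes them as pairs of littermates, and the labels do not say that a replicate number marks a pair. Ts1Cje arose when distal chromosome 16 beyond a targeted, non-functional Sod1 was translocated to the end of chromosome 12, so the line carries many extra genes besides the receptors, and the effect of the receptors cannot be told apart from that of the rest. The labels call the 3 samples of each genotype biological replicates, and p-values measure only the spread between these samples.

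The deposited values are log2 intensities made with gcRMA, and they ran from 2.232 to 15.89. Pairs of arrays correlated at 0.9915 to 0.9966. M denotes the log2 difference between the genotype means (Ts1Cje minus disomic, 3 arrays each), and A the mean over all 6 arrays. A probe set with A above 5 was taken as expressed, and a moderated t past 4 in either direction was taken as a call. The labels were checked on the trisomic segment, where 43 of 44 expressed genes had M above 0, with a median M of 0.53. Of the neural stem and progenitor markers, 10 of 11 were expressed, while 0 of 10 vascular and 0 of 7 lymphocyte markers were. Of 15 microglia and macrophage markers, 13 were under 3 on every array, among them the defining genes Aif1, Tyrobp and C1qa at 2.23 throughout. The exceptions were Ctss, at 4.57 to 6.54 on disomic and 3.59 to 5.26 on Ts1Cje arrays, and Laptm5, at 2.64 to 4.70 and 2.64 to 3.16. The log2 values of the 15 markers summed to between 36.6 and 40.7 on disomic arrays and between 35.6 and 38.2 on Ts1Cje arrays. The 3′ minus 5′ difference of the actin and Gapdh controls and the 18S ribosomal RNA control were higher on all 3 Ts1Cje arrays than on all 3 disomic arrays, by 0.35, 0.167 and 1.12 on the log2 scale. The part of these controls in the results below was not tested.

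The promoters of 4 members are shown: Rsad2, Eif2ak2 and Gbp2 had the highest M of the expressed members, and Ifit1, a classical target of interferon, read the same low value on every array. The sequences are RefSeq windows of 300 bases (250 before and 50 after the gene start) on GRCm38.p6, written 5′ to 3′ on the strand of the gene. The windows are chr12:26456403-26456702 (minus strand) for Rsad2, chr17:78882523-78882822 (minus strand) for Eif2ak2, chr3:142620413-142620712 (plus strand) for Gbp2 and chr19:34640639-34640938 (plus strand) for Ifit1.
Rsad2: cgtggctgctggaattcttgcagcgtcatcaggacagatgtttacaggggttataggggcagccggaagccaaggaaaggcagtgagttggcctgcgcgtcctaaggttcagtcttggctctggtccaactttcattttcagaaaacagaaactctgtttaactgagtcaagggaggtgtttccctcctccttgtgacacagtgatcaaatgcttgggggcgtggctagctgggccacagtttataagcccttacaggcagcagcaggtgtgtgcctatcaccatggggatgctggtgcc
Eif2ak2: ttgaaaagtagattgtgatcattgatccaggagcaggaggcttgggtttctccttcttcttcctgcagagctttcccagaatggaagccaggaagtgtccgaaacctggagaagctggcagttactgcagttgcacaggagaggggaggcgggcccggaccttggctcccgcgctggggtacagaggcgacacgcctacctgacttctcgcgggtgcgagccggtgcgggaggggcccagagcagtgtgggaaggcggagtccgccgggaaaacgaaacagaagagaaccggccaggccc
Gbp2: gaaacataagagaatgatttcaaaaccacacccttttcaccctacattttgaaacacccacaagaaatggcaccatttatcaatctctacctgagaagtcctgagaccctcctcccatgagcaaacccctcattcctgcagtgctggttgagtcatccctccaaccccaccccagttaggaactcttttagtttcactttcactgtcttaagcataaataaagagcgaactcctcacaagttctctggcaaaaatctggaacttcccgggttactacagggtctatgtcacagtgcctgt
Ifit1: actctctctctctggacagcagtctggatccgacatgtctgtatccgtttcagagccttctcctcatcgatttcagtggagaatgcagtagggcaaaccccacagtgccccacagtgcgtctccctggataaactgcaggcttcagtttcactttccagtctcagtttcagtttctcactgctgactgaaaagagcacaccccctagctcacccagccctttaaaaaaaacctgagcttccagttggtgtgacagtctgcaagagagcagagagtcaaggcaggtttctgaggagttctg

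The brightest probe set stood for each of the 39 genes, of which 21 were expressed and 18 were not. Among all 18193 genes with a probe set of their own, 8947 were expressed. M was above 0 for 20 of the 21 expressed members, Irf9 being the exception, where 53.9% of all expressed genes had M above 0. The median M of the 21 genes was 0.18, with quartiles of 0.07 and 0.37 and a range from -0.17 to 1.23. The median over all expressed genes was 0.02. Without the filter on expression, 32 of 39 members had M above 0 (41.4% of all genes), with a median of 0.16 against 0 for all genes. Genes that are flat at low values have M of 0 and count here as not above 0. Some of the 32 members, such as Oasl2 and Cxcl10, were raised on 1 array only. The differences were small for most members, and few members stood clear of the spread between arrays. Only Eif2ak2 passed a moderated t of 4, where 1.13% of expressed genes did, and 0 members passed it in the other direction, where 0.693% did. Every Ts1Cje array exceeded every disomic array for 3 of the 21 (Eif2ak2, Rsad2 and Psmb10), against 6.12% of expressed genes. The reverse held for 0 members, against 5.16% of expressed genes. By limma with p-values adjusted over all probe sets, 0 members passed 0.05, and 1 of 45037 probe sets did (0.00222%). Unadjusted p-values were under 0.05 for 2 of the 21 members and for 591 of the 8947 expressed genes. In bulk RNA, fewer cells of a type and less RNA per cell cannot be told apart.

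**Figure D1:**
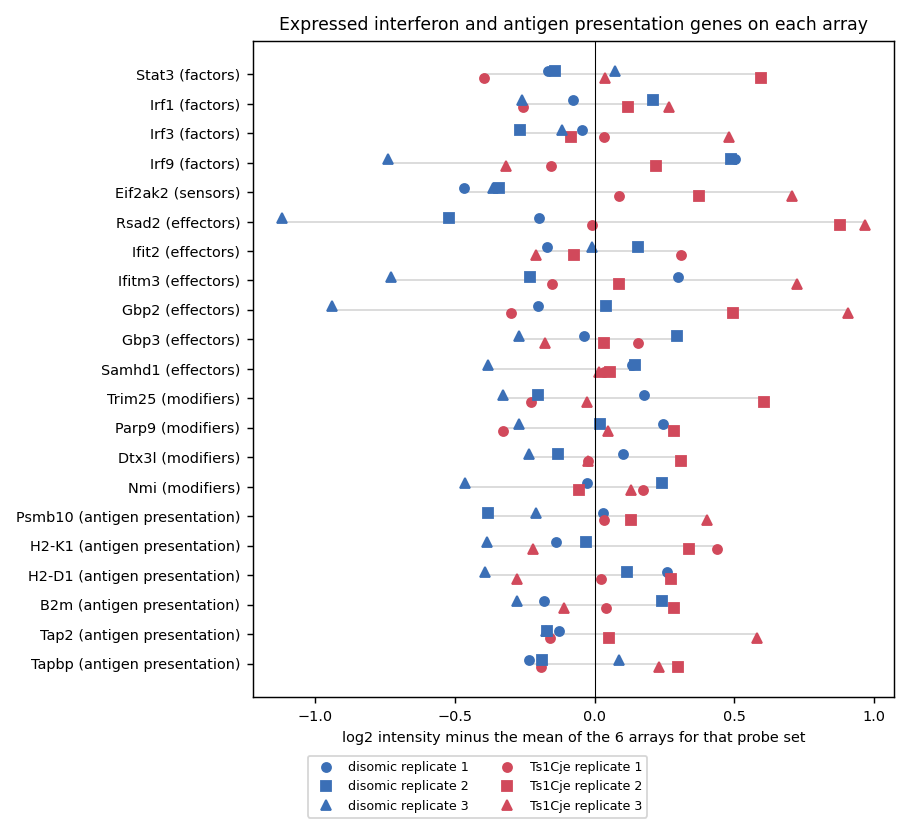
Log2 intensity of each of the 21 expressed members on each array, as the difference from the mean of the 6 arrays for that probe set (x axis, log2), with genes in rows by role, blue symbols for disomic and red for Ts1Cje arrays, and a symbol shape for each replicate number. Disomic replicate 3 lies at the left end for 14 of the 21 genes, and the colours separate fully only for Eif2ak2, Rsad2 and Psmb10.

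Arrays of the same genotype differed among themselves. Averaged over the 21 expressed members, the deviation from the mean of the 6 arrays was -0.02 on disomic replicate 1, -0.03 on disomic replicate 2 and -0.36 on disomic replicate 3. On the Ts1Cje arrays it was -0.04, 0.25 and 0.20 for replicates 1, 2 and 3. By this mean, Ts1Cje replicate 1 lay below disomic replicates 1 and 2, and the groups overlapped. By the median deviation over the same genes they did not: it was -0.05, -0.03 and -0.28 on disomic replicates 1, 2 and 3 and -0.01, 0.27 and 0.05 on Ts1Cje replicates 1, 2 and 3. Disomic replicate 3 was the lowest array for 14 of the 21 members, while it was the lowest for 19.1% of all expressed genes. Ts1Cje replicate 2 was the highest array for 7 members and Ts1Cje replicate 3 for 8, against 14% and 23% of all expressed genes. Averaged over all expressed genes, the deviations of the arrays ran only from -0.02 to 0.02. Without disomic replicate 3, 14 of the 21 members had M above 0 and the median M was 0.13. Without Ts1Cje replicate 2, 15 members did and the median M was 0.07, and without Ts1Cje replicate 1 the median was 0.24. Without disomic replicate 3, 52.4% of all expressed genes had M above 0, and without Ts1Cje replicate 2, 53.7%.

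**Figure D2:**
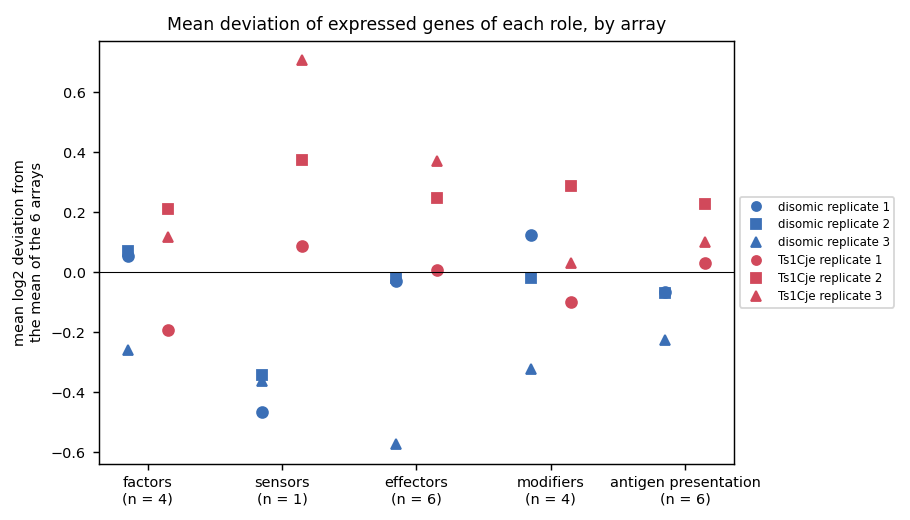
Mean deviation of the expressed members of each role from their 6-array means (y axis, log2), with a symbol for each array, blue for disomic and red for Ts1Cje, and the number of genes under each role. The antiviral effectors and the antigen presentation genes show all 3 Ts1Cje arrays above all 3 disomic arrays, but narrowly. For the effectors, disomic replicate 2 and Ts1Cje replicate 1 are at -0.02 and 0.01. For antigen presentation, disomic replicate 1 and Ts1Cje replicate 1 are at -0.07 and 0.03. Each of these means rests on 6 genes, and its dependence on single genes was not tested. The factors and the modifiers do not separate, and the only expressed sensor is Eif2ak2.

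The signalling and transcription factors of the pathway had the lowest median M of the roles, and none passed the test. Of the 7 listed, Stat3, Irf1, Irf3 and Irf9 were expressed, with a median M of 0.12. Irf9, the DNA-binding partner of Stat2, read 5.72, 5.71 and 4.48 on disomic replicates 1 to 3 and 5.06, 5.44 and 4.90 on Ts1Cje replicates 1 to 3. Its M was -0.17 (SE 0.42, n = 3 per genotype), and the width of the disomic group covered all Ts1Cje values. Stat3, which carries signals of the interleukin 6 family as well as of interferons, had M of 0.16 (SE 0.29), and its other expressed probe sets gave 0.29 and 0.07. Irf1, an activator that interferon gamma induces, had M of 0.09 (SE 0.20). Irf3, which acts downstream of the RNA sensors and is present before any stimulus, had M of 0.28 (SE 0.18) on its brightest probe set and -0.14 on its other expressed probe set. It was the only member whose expressed probe sets differed in sign. By their brightest probe sets, the interferon-responsive factors Stat2 and Irf7 read the same value on all 6 arrays (2.29 and 2.23). Irf2, mostly a repressor, varied by 0.02 around 3.31.

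Among the RNA sensors, Eif2ak2 was higher in Ts1Cje neurospheres. Eif2ak2 encodes PKR, a kinase that binds double-stranded RNA and blocks translation. It read 5.51, 5.64 and 5.62 on the disomic arrays and 6.06, 6.35 and 6.69 on the Ts1Cje arrays. All 3 Ts1Cje arrays lay above the disomic arrays, which themselves spread by little. M was 0.78 (SE 0.18, 95% confidence interval 0.30 to 1.25), a 1.72-fold difference with a moderated t of 4.42 and an adjusted p of 1 in limma. A dimmer probe set of the gene, which was not expressed, gave M of 0.55 (SE 0.37). A further probe set with A above 5 read its own lowest value, 5.59, on 5 arrays and 5.61 on the other, so it could not show a difference. With the mean of the expressed probe sets in place of the brightest, which includes this flat one, M was 0.39 and the moderated t 2.98. The moderated t also fell to 3.36, 3.60, 3.53 and 3.50 without disomic replicate 1, 2 or 3 or Ts1Cje replicate 2. The cytoplasmic RNA sensor Ifih1 (MDA5) was just under the level for expression, at 4.20 to 5.15 on disomic and 4.51 to 5.26 on Ts1Cje arrays. Dhx58 (LGP2), a regulator of such sensors, read 2.61 on all 6 arrays.

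The antiviral effectors held the largest M of the group, and also members with none. Of 13 listed, 6 were expressed, all with M above 0 and with a median of 0.25. Rsad2 encodes viperin, which makes a nucleotide analogue that stops viral polymerases. It read 6.60, 6.28 and 5.68 on the disomic and 6.80, 7.68 and 7.77 on the Ts1Cje arrays. The groups did not overlap, but Ts1Cje replicate 1 lay only just above disomic replicate 1. M was 1.23 (SE 0.40, 95% confidence interval 0.16 to 2.29), a 2.34-fold difference. The moderated t of 3.10 was short of 4, and the adjusted p was 1 in limma. Without Ts1Cje replicate 1, M was 1.54 and the moderated t 4.63. A dimmer probe set of Rsad2, which was not expressed, gave M of 0.39 (SE 0.24), with groups that overlapped. A further probe set of the gene read 2.25 on all 6 arrays.

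Gbp2, a guanylate-binding protein that attacks the membranes around intracellular pathogens, read 7.03, 7.27 and 6.29 on the disomic and 6.93, 7.73 and 8.14 on the Ts1Cje arrays. Ts1Cje replicate 1 was below disomic replicates 1 and 2, so the groups overlapped. M was 0.73 (SE 0.44), and its other expressed probe set gave 0.57 (SE 0.29). The M of 0.73 dropped to 0.45 without disomic replicate 3 and to 0.46 without Ts1Cje replicate 3. Ifitm3, a membrane protein that hinders virus entry, had M of 0.44 (SE 0.38), with 8.62 to 9.65 on disomic and 9.20 to 10.08 on Ts1Cje arrays. Its M was 0.19 without disomic replicate 3 and also without Ts1Cje replicate 3. These genes ranked high by M, but their range within each genotype was wider than the difference between the genotype means.

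Gbp3, a relative of Gbp2, read 10.65, 10.98 and 10.42 on the disomic and 10.84, 10.72 and 10.51 on the Ts1Cje arrays, with M of 0.01 (SE 0.18, 95% confidence interval -0.48 to 0.50). Ifit2, which binds RNA and restrains translation, had M of 0.02 (SE 0.17), at 8.64 to 8.97 and 8.60 to 9.12. Samhd1, which degrades the nucleotides that viruses need, had M of 0.07 (SE 0.17), and its other expressed probe set gave 0.08. The sign of M for Gbp3, Ifit2 and Samhd1 depended on single arrays, and that of Gbp3 and Ifit2 also turned with array weights. Without disomic replicate 3, Samhd1 had M of -0.11 with a moderated t of -6.99.

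Of the effectors that were not expressed, Ifit1 read 2.24 on all 6 arrays. Ifit3 (3.21 to 4.11 on disomic and 3.34 to 4.10 on Ts1Cje arrays), Bst2 (tetherin, M of -0.02) and Ifitm2 (M of -0.12) showed no separation of the genotypes. The chemokine Cxcl10 read 3.57 on 5 arrays and 4.19 on Ts1Cje replicate 2. Oasl2, of the oligoadenylate synthetase family, read 2.26, 2.28 and 2.26 on the disomic and 2.26, 4.40 and 2.23 on the Ts1Cje arrays. For Cxcl10 and Oasl2 the difference was thus that of 1 array.

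**Figure D3:**
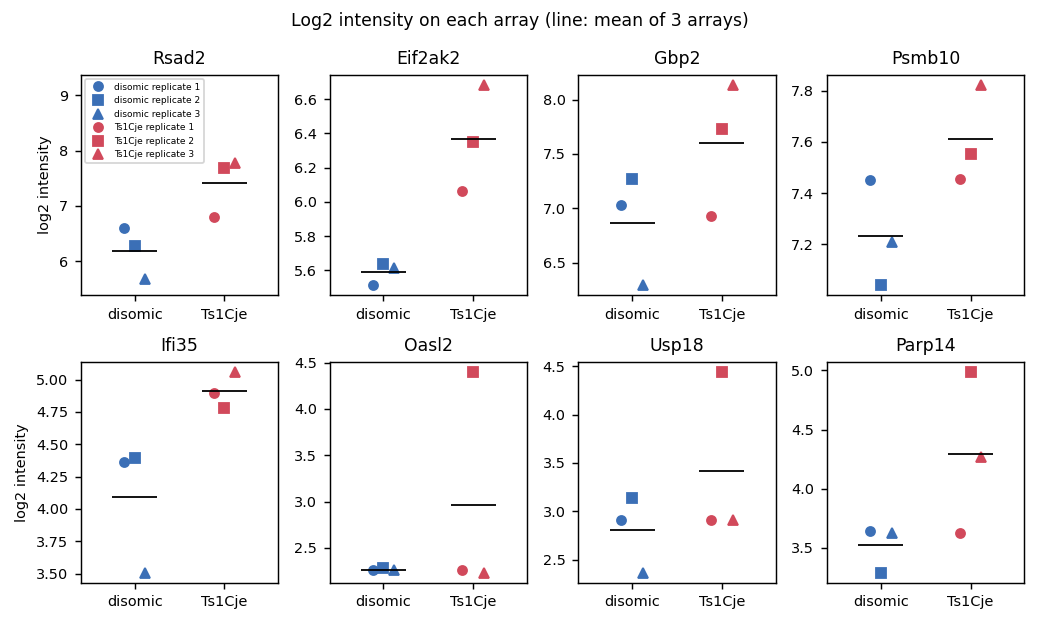
Log2 intensity (y axis) of 8 members on each disomic (blue) and Ts1Cje (red) array, with a symbol shape for each replicate number and a line at the mean of 3 arrays; each panel has its own scale. Eif2ak2, Rsad2, Psmb10 and Ifi35 show no overlap between the genotypes, while Oasl2, Usp18 and Parp14 are highest on Ts1Cje replicate 2.

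Modifiers and regulators showed small differences where they were expressed. Of 9 listed, Trim25, Parp9, Dtx3l and Nmi were expressed, with a median M of 0.17. Trim25, a ubiquitin ligase of the RNA sensor pathway, had M of 0.23 (SE 0.28), and its other expressed probe set gave 0.24. The partners Dtx3l and Parp9, which form a ubiquitin ligase complex and are neighbours on chromosome 16, had M of 0.18 (SE 0.14) and 0.00 (SE 0.22). Parp9 read 7.38, 7.15 and 6.87 on the disomic and 6.81, 7.42 and 7.18 on the Ts1Cje arrays, and the groups overlapped almost fully. Its 95% confidence interval ran from -0.60 to 0.60. Nmi, which binds STAT proteins, had M of 0.17 (SE 0.21).

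Ifi35, the partner of Nmi, was under the level for expression, but its brightest probe set separated the genotypes. This probe set read 4.37, 4.39 and 3.51 on the disomic and 4.89, 4.78 and 5.06 on the Ts1Cje arrays. M was 0.82 (SE 0.29, moderated t 2.83, adjusted p of 1 in limma). The dimmer probe sets of Ifi35 gave M of 0.02 (SE 0.12) and 0.03 (SE 0.02), with groups that overlapped. Parp14, a mono-ADP-ribosyltransferase next to Parp9, read 3.64, 3.29 and 3.63 against 3.62, 4.99 and 4.26, with M of 0.77 (SE 0.40). Usp18, which removes Isg15 from proteins and dampens the type I receptor, read 2.91, 3.14 and 2.36 against 2.91, 4.44 and 2.91. Ts1Cje replicate 2 was the highest array for Parp14, Usp18, Oasl2 and Ifih1, which are 4 of the 6 unexpressed members that ranged over more than 1 log2 unit. Xaf1, an interferon-induced antagonist of an inhibitor of cell death, varied by 0.06 around 2.30. The probe set shared by Isg15, the ubiquitin-like modifier itself, and Gm9706 lay between 2.53 and 2.98.

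In antigen presentation, 6 of 9 genes were expressed, all with M above 0 and with a median of 0.27. Psmb10, a catalytic subunit of the immunoproteasome, read 7.45, 7.04 and 7.21 on the disomic and 7.46, 7.55 and 7.82 on the Ts1Cje arrays. The groups did not overlap, but disomic replicate 1 and Ts1Cje replicate 1 differed by less than 0.01. M was 0.38 (SE 0.16, 95% confidence interval -0.04 to 0.80) with a moderated t of 2.41. The other catalytic immunoproteasome subunits were not expressed: Psmb8 read 2.29 on 5 arrays and Psmb9 averaged 2.82. Their constitutive counterparts were expressed, and M was 0.00 (SE 0.05) for Psmb5, -0.10 (SE 0.06) for Psmb6 and -0.28 (SE 0.09, moderated t -3.24) for Psmb7. Psmb7, which Psmb10 replaces in the immunoproteasome, lay lower on every Ts1Cje array, at 12.31, 12.05 and 12.10 against 12.35 to 12.51.

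The peptide transporter and loading genes did not pass the test, and their groups overlapped. Tap2, a subunit of the transporter that carries peptides into the endoplasmic reticulum, read 6.34, 6.29 and 6.29 against 6.31, 6.51 and 7.04, with M of 0.31 (SE 0.21), which was 0.10 without Ts1Cje replicate 3. Tap1, the other subunit, was not expressed on average, at 4.18 to 4.92 and 4.35 to 5.33. Tapbp (tapasin), which bridges the transporter and MHC class I, had M of 0.22 (SE 0.18). B2m, the invariant light chain of MHC class I, had M of 0.15 (SE 0.19), and its other expressed probe set gave 0.07.

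H2-K1, a classical MHC class I heavy chain, read 8.10, 8.21 and 7.85 on the disomic and 8.68, 8.58 and 8.02 on the Ts1Cje arrays, with M of 0.37 (SE 0.22). Its other expressed probe sets gave 0.08 and 0.26, and without Ts1Cje replicate 3 the brightest reached M of 0.57 with a moderated t of 4.29. H2-D1, the other heavy chain, read 8.06, 7.92 and 7.41 against 7.83, 8.08 and 7.53, with M of 0.01 (SE 0.24, 95% confidence interval -0.64 to 0.67). Its other expressed probe set gave 0.16 (SE 0.22). The H2 genes are close paralogs, and all their expressed probe sets are of the kind whose probes can match other genes, so the values of H2-K1 and H2-D1 are uncertain. The brightest probe sets of Gbp2 and Irf3 are of the same kind. A probe set annotated to both H2-K1 and H2-D1 had M of 0.30 (SE 0.16).

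**Figure D4:**
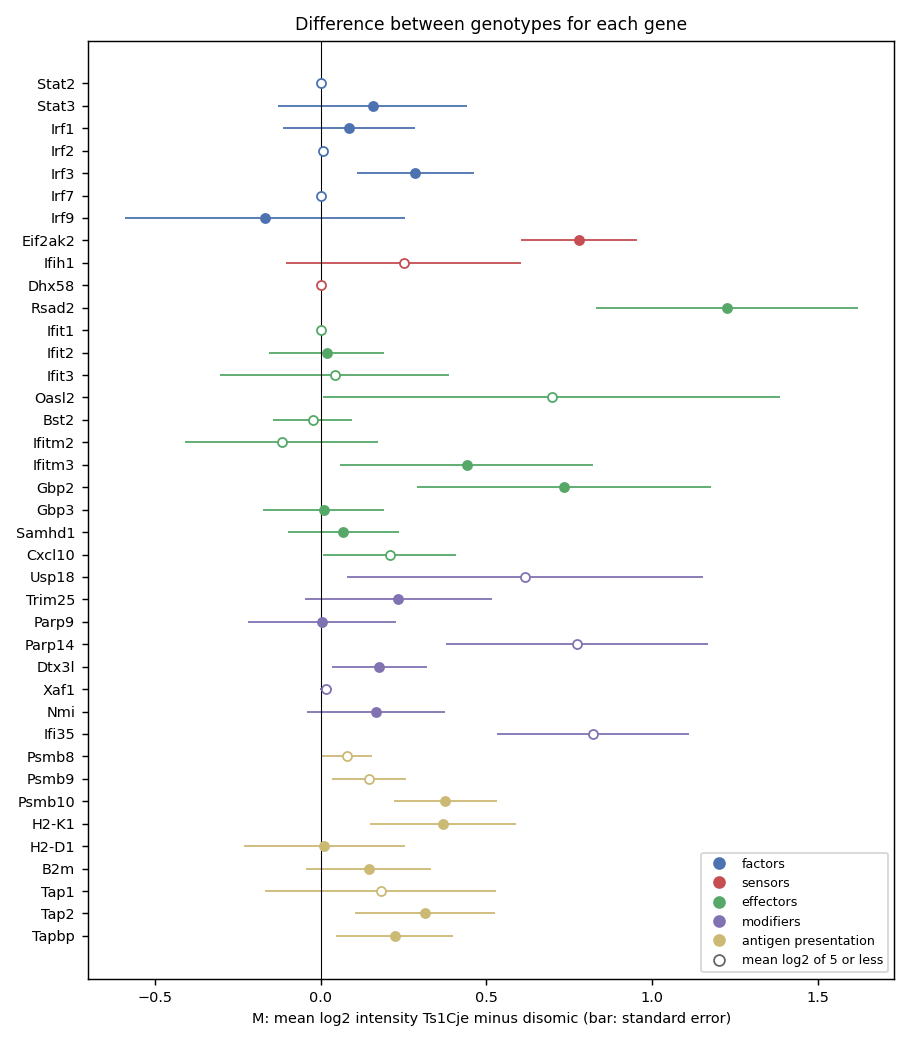
M with its standard error (x axis, log2; n = 3 arrays per genotype) for the 39 members with a probe set of their own, coloured by role, with open symbols for genes that were not expressed. Rsad2, Ifi35, Eif2ak2, Parp14 and Gbp2 are farthest to the right, and Irf9 is the only expressed gene left of 0.

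The low end of the group was described separately. Of the 18 genes that were not expressed, 6 varied by less than 0.1 across the 6 arrays (Stat2, Irf2, Irf7, Dhx58, Ifit1 and Xaf1). The brightest probe sets of Stat2, Irf7, Dhx58 and Ifit1, all known to respond to interferon, read an identical value on every array of both genotypes. The other probe set of Stat2 read 2.48 on Ts1Cje replicate 2 and 2.23 on every other array. Expression below the level that gcRMA separates from background was not detectable on these arrays.

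Upstream of these genes, Ifnar1 was higher in Ts1Cje neurospheres and no listed ligand was expressed. Ifnar1 read 8.51, 8.37 and 8.42 on the disomic and 8.82, 9.16 and 8.81 on the Ts1Cje arrays, with M of 0.50 (SE 0.12) and a moderated t of 4.29 (adjusted p of 1 in limma). Ifnar2 read 6.90, 7.05 and 6.79 against 7.43, 7.55 and 8.25, with M of 0.83 (SE 0.26) and a moderated t of 3.23, and these groups did not overlap either. Il10rb, the shared subunit of the interleukin 10 and interferon lambda receptors, had M of 0.32 (SE 0.24), and Ifngr2 was not expressed, at 2.47 to 2.83. Of the 6 ligand genes with a probe set (of 7 listed interferons and interleukins), 0 were expressed. The kinases Jak1, Jak2 and Tyk2 had M of 0.27 (SE 0.13), 0.11 (SE 0.11) and 0.29 (SE 0.30). Among the 9 expressed genes of this list of other receptors, kinases and restraints, 6 had M above 0, with a median of 0.13.

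Further genes of the same pathways were counted from a list. Of 39 other interferon-stimulated genes with a probe set, 12 were expressed, 9 of them with M above 0 and with a median of 0.22. Herc6 had the lowest M of these, -0.37 (SE 0.17), and its other expressed probe set gave -0.36 (SE 0.55), with groups that overlapped. Tor3a, an interferon-induced ATPase, read 5.33, 5.21 and 4.95 against 5.61, 5.63 and 5.60, and its M of 0.45 (SE 0.11) gave a moderated t of 4.23. The groups also did not overlap for Trim21 and Adar, which are named because of their values. Their M was 0.58 (SE 0.17) and 0.13 (SE 0.06). Every Ts1Cje array exceeded every disomic array for 3 of the 12 genes, against 6.12% of all expressed genes. The reverse held for 0 of the 12, against 5.16%. The other expressed probe set of Adar had M of -0.58 (SE 0.53), with groups that overlapped. Mx1 and Mx2, antiviral GTPases within the trisomic segment, were not expressed, at 2.23 to 2.27 and 2.52 to 2.65. In the sensor pathway, 4 of 6 genes with a probe set were expressed, 2 with M above 0 and 2 below 0. Of these, Tlr3, the endosomal receptor for double-stranded RNA, read 8.71, 8.64 and 8.54 against 9.06, 8.99 and 9.24. Its M was 0.46 (SE 0.09) with a moderated t of 5.36, while its other expressed probe set gave -0.08 (SE 0.36). The adjusted p was 1 in limma for both Tor3a and Tlr3.

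Of the MHC class I pathway genes outside the group, 2 of 5 expressed genes had M above 0, with a median of -0.08, and 0 of 5 MHC class II genes were expressed. Over all these pathway lists, 36 of 84 genes were expressed, 22 had M above 0, the median M was 0.13, and 3 had a moderated t above 4 (Ifnar1, Tlr3 and Tor3a, where 1.13% of all expressed genes did) and 0 below -4 (0.693%). Every Ts1Cje array exceeded every disomic array for 7 of the 36, against 6.12% of all expressed genes. These were Ifnar1, Ifnar2, Il6st, Tlr3, Tor3a, Trim21 and Adar. The reverse held for 2, Calr and Psmb7, against 5.16% of all expressed genes. All these counts include the 3 expressed trisomic receptors.

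**Figure D5:**
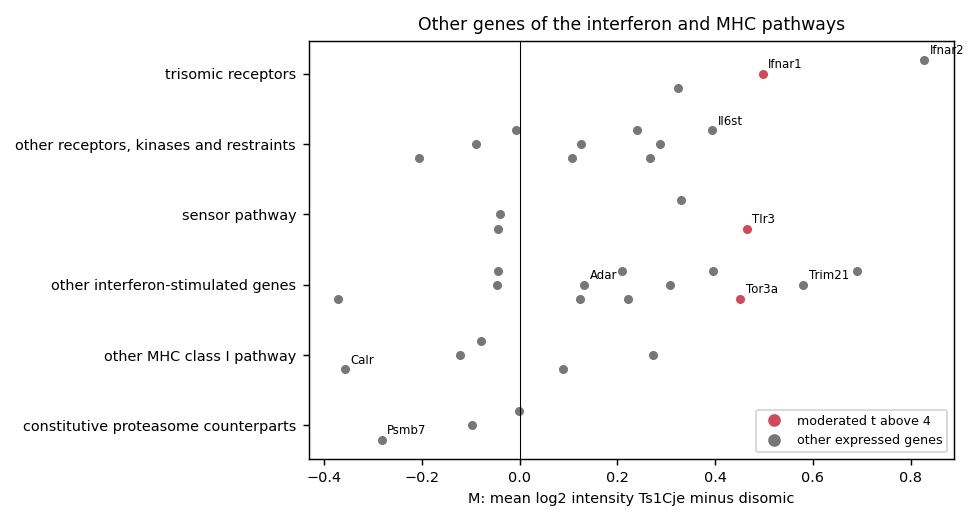
M (x axis, log2, Ts1Cje minus disomic) of the 36 expressed pathway genes outside the group, by list, with a moderated t above 4 in red and names for genes whose arrays did not overlap between genotypes. Ifnar2 (0.83), Ifi27 (0.69, not named in the figure) and Trim21 (0.58) lie farthest to the right, followed by Ifnar1, Tlr3 and Tor3a at 0.45 to 0.50. Herc6 (-0.37, not named in the figure), Calr (-0.36) and Psmb7 (-0.28) lie farthest to the left.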

How the data were processed

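Neurosphere RNA from 3 Ts1Cje and 3 disomic mice was labelled in 2 cycles and hybridised to Affymetrix mouse genome arrays. The authors deposited log2 intensities made with gcRMA (version not given in the sources used here), which corrects background from probe base composition, normalises between arrays and summarises probe sets; low values collapse to a floor, so low genes can show no difference. Probe sets with several symbols (932), none (9160) and the 64 controls were not used for genes. Genotype was the single term of a linear model fitted to all 45037 probe sets with limma 3.58.1 in R 4.3.3 (empirical Bayes moderated t, two-sided, Benjamini-Hochberg over all probe sets); the prior degrees of freedom were 0.336. The fit was run on simulated data with independent noise for each probe set and known added differences, larger than those of most members. That run checked the recovery of M and does not cover small differences or members that vary together. Each gene was represented by its brightest single-symbol probe set, and probe sets with A above 5 counted as expressed. With 3 arrays against 3, an exact permutation test cannot give p below 0.1, so none was used, and the number of arrays limits the precision.

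The members and lists were chosen with earlier results of these data known. Every member was named by role. Values of all arrays were given for expressed members with no overlap between groups, a moderated t past 2.5 or M past 0.5 in either direction, and for the 3 nearest to M of 0. A few others were shown after their values were seen. Promoters came from RefSeq (GRCm38.p6). Tables and figures were made with Python 3.11.15, pandas 2.3.3 and matplotlib 3.10.9. Alternatives were a replicate block, omission of single arrays, cyclic loess, estimated array weights, an intensity-dependent robust prior, other levels for expression and the mean of probe sets.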

Additional observations from a re-analysis of the deposited data

Results flagged for a closer look

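The control probe sets, which enter no comparison of genes, differed between the genotypes on all arrays. The log2 difference between the 3′ and 5′ probe sets was higher on Ts1Cje arrays by 0.35 for actin and by 0.167 for Gapdh, and the 18S ribosomal RNA control was higher by 1.12. Their part in the differences of interferon-stimulated genes was not tested.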

How the results depend on the processing

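Across 14 alternative settings, the median M of the expressed members stayed above 0, from 0.07 without Ts1Cje replicate 2 to 0.25 with array weights, and leaving out each array gave 0.07 to 0.24. The number with M above 0 (20 of 21) was 14 to 21 without single arrays, and 32 of 39 without a filter on low values. The number with a moderated t past 4 (1) was 0 with a robust prior variance that follows intensity, with expression set above 6 and with the mean of the expressed probe sets, and 0 to 2 without single arrays. The share of all expressed genes past it was 1.82%. Under those 3 settings the share was 0.536%, 1.88% and 0.659%, and without single arrays 2.48% to 5.03%. The member past it was not always Eif2ak2. Without disomic replicate 3 it was Samhd1, in the other direction (moderated t -6.99), while Eif2ak2 was at 3.53. Rsad2 was added without Ts1Cje replicate 1 (4.63) and H2-K1 without Ts1Cje replicate 3 (4.29). Members with no overlap (3) numbered 4 to 7 without single arrays, while the share of all expressed genes rose from 11.3% to between 18.1% and 26.4%. Probe sets past the adjusted p (1) numbered 0 with the replicate block and 0 to 6 without single arrays.

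The study describes littermate pairs. Over the expressed probe sets, the deviations of same-numbered arrays from their genotype means correlated at -0.17, -0.03 and 0.13. Arrays with different numbers correlated at -0.365 to 0.40, highest for disomic replicate 2 with Ts1Cje replicate 1. The replicate numbers thus did not show a pairing. With 3 arrays per genotype these correlations depend on one another, so they cannot decide which arrays are littermates. With the block, Eif2ak2 remained the only member past a moderated t of 4 (5.51). Of all expressed genes 585 (6.54%) passed it, against 163 (1.82%) without. The block leaves fewer degrees of freedom, so the same moderated t is a looser limit with it, and the counts are not alike. The block moved the moderated t of B2m from 0.77 to 3.01 and that of H2-K1 from 1.67 to 3.32.

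Of 291 values of single genes, 22 changed sign. Array weights gave -0.0504 for Gbp3 and -0.022 for Ifit2, and cyclic loess gave -0.0013 for Parp9. Leaving out single arrays gave M of -0.12 to 0.16 for Gbp3, -0.18 to 0.15 for H2-D1, -0.13 to 0.13 for Ifit2, -0.0256 to 0.24 for Irf1, -0.58 to 0.0402 for Irf9, -0.0239 to 0.33 for Nmi, -0.14 to 0.17 for Parp9, -0.11 to 0.16 for Samhd1, -0.10 to 0.40 for Stat3 and -0.0103 to 0.41 for Trim25. The cause was not tested. Low intensities, where gcRMA values are flat, limit what low genes can show.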
